A study of Bos taurus with 4 samples.

Results

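RALY belongs to the hnRNP family of RNA-binding proteins, and the genes described here are RALY and 9 hnRNP genes: HNRNPC, HNRNPA1, HNRNPA2B1, HNRNPK, HNRNPU, HNRNPD, HNRNPL, HNRNPM and HNRNPR. They were taken as every array probe whose platform gene symbol was one of these 10 names, which gave 21 of the 43794 probes and 10 of the 15216 gene symbols on the array. RALY was chosen by its ratio between the ages in these same arrays, where it had the highest ratio among the genes that passed as higher at 8 months, and the hnRNP genes were added as its relatives. The ratios between the ages are therefore given for these genes as a description, and the calls of the fit on them, counted once beside those over all genes, support nothing. Positions of the probes in the transcripts or the genome were not used here, so transcript isoforms could not be assigned.

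The hnRNP proteins coat nascent transcripts in the nucleus and act in splicing, RNA export, stability and translation. HNRNPC forms part of the core particle on pre-mRNA together with the A and B proteins, binds uridine tracts, and is a close relative of RALY. In mouse, the lethal yellow allele deletes Raly and its neighbour Eif2s2, places the agouti gene under the Raly promoter, and is lethal to homozygous embryos around implantation.

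The samples were pools of early blastocysts of Holstein cattle, produced in vitro and collected 168 h after fertilization. The oocytes came from 4 heifers, each at 8 and at 14 months of age after ovarian stimulation with FSH, and 1 bull sired the embryos. Each heifer gave 1 two-colour array (n = 4), with the 8-month pool in Cy5 and the 14-month pool in Cy3 for heifers 1 and 2 and the dyes reversed for heifers 3 and 4. The collection at 8 months came first in every heifer, so donor age and order of collection cannot be told apart, and the number of embryos per pool was not used here. The RNA was amplified linearly before labelling. In pooled embryos, fewer cells of a type and less RNA per cell cannot be told apart either. Values are log2 ratios of 8 over 14 months, positive where the 8-month embryos were higher, with the SD over the 4 heifers. Intensities after normalization within and between arrays, on a log2 scale, are called levels, and levels of different probes are not comparable.

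A sample had 26.9% to 51.1% of the 43794 probes above background, and 17685 probes and 8398 genes were compared. Over all compared probes the correlation of the ratios was 0.61 for heifers 1 and 2, which shared a dye orientation, 0.39 for heifers 3 and 4, and 0.0015 to 0.12 across orientations. All 9 blastocyst markers looked up, among them KRT8, CDX2, POU5F1 and NANOG, were compared, and 1 passed (GATA2, 0.61). Their summed linear level was 126243 to 164647 at 8 months and 129297 to 153044 at 14 months. Such sums are read between the ages of the same list and not between lists, since levels of different probes are not comparable. Of 10 cumulus and granulosa genes 5 were compared, with a summed level of 7833 to 15495 at 8 months and 6704 to 10354 at 14 months. FSHR, AMH, VCAN and TNFAIP6 were above background in 0 of 8 samples, and CYP11A1, HSD3B1, INHBA and SERPINE2 in all 8. The 5 compared genes had ratios from -0.70 (HSD3B1) to 0.25 (SERPINE2), and 0 passed. Of 4 blood cell genes 3 were compared, with a summed level of 1369 to 2868 at 8 months and 1140 to 2432 at 14 months. HBB was above background in 0 samples, and PTPRC and HBA, by their best probe, in 4 of 4 at each age. The part of these other cell types in the ratios below was not tested.

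Of the 21 probes, 17 were compared and 15 were above background in all 8 samples, and each of the 10 genes had at least 1 compared probe. The 4 probes left out were 3 of HNRNPK (EMBV3_17645, EMBV3_30484 and EMBV3_33022) and 1 of HNRNPM (EMBV3_15669). They had scanner intensities of 71 to 296, and only EMBV3_33022 was above background, in 1 of 8 samples. The remaining HNRNPK probe reached 5131 to 12468 in the same samples. None of the 17 compared probes was saturated in any sample.

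RALY had 2 probes. With probe EMBV3_26019 the scanner intensity was 5523, 3221, 4851 and 2054 in the 8-month embryos of heifers 1 to 4. In the 14-month embryos it was 1526, 2307, 2288 and 747. These raw values differ in dye between heifers. After normalization the levels were 12.50, 11.63, 11.83 and 10.89 at 8 months and 10.51, 11.03, 11.30 and 9.84 at 14 months. The 8-month sample was the higher one in each heifer, while the ranges of the ages overlapped, since heifer 4 was low at both ages. The log2 ratios of this RALY probe were 1.99, 0.60, 0.53 and 1.05 in heifers 1 to 4, a mean of 1.04 ± 0.67 (SD, n = 4) or 2.06-fold. Heifer 1 stood well above heifer 2, although both had the same dye orientation. Without heifer 1 the mean was 0.73, or 1.66-fold.

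The second RALY probe, EMBV3_20682, was dimmer, with scanner intensities of 312 to 1128. Its levels were 9.65, 9.25, 9.62 and 8.90 at 8 months and 8.42, 8.78, 9.45 and 8.54 at 14 months. The ratios were 1.23, 0.47, 0.17 and 0.36, with a mean of 0.56 ± 0.47 (SD, n = 4) or 1.47-fold. Both probes were thus higher at 8 months in 4 of 4 heifers, with heifer 1 highest and heifer 3 lowest. The bright probe gave the larger ratio in each heifer, by 0.76, 0.13, 0.36 and 0.69. Among the 8398 genes RALY had the highest fitted ratio, followed among those that passed by PRPF6, a splicing factor, at 0.94. With 1 heifer left out at a time its fitted ratio was 0.70 to 1.39.

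**Figure D1:**
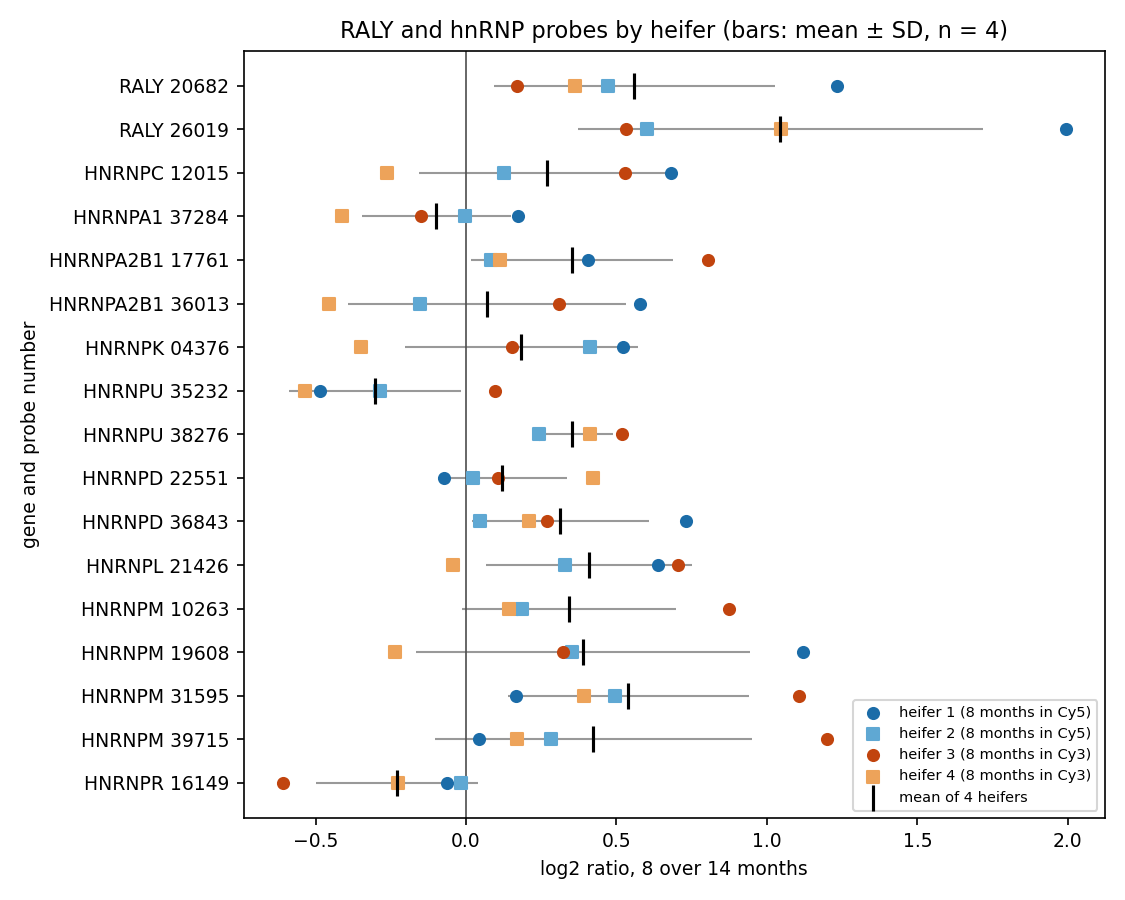
Log2 ratio of 8 over 14 months (x axis) for each of the 17 compared probes (y axis, gene and probe number). Points are heifers 1 to 4, coloured by dye orientation, and the tick and bar are the mean and SD. Both RALY probes lie above 0 in all heifers, with heifer 1 at 1.99 and 1.23, and heifer 3 stands to the right at 3 HNRNPM probes.

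HNRNPC, a relative of RALY, had 1 probe (EMBV3_12015). Its levels were 10.32, 9.92, 10.95 and 9.86 at 8 months and 9.64, 9.79, 10.42 and 10.12 at 14 months. The ratios were 0.68, 0.13, 0.53 and -0.26, with a mean of 0.27 ± 0.42 (SD, n = 4), so 3 of 4 heifers were higher at 8 months and the SD exceeded the mean. Median centring in place of loess moved the median of all probes from 0.0023 to -0.14, and the mean of HNRNPC was then -0.01, which is 0.13 above that median. The RALY ratio exceeded that of HNRNPC by 1.31, 0.48, 0.0036 and 1.31 in heifers 1 to 4. In heifer 3 the ratios of RALY and HNRNPC were therefore almost equal. With 1 probe per gene, RALY had the highest ratio of the 10 genes in heifers 1, 2 and 4, and in heifer 3 it came second to HNRNPL.

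The A and B proteins of the core particle were represented by HNRNPA1, a splicing repressor that shuttles between nucleus and cytoplasm, and HNRNPA2B1, which also binds RNAs that are transported in the cytoplasm. HNRNPA1 (EMBV3_37284) had ratios of 0.17, -0.0024, -0.15 and -0.41, with a mean of -0.10 ± 0.25 (SD, n = 4). Its level ranged from 10.74 to 13.54 at 8 months and from 11.15 to 13.37 at 14 months. The range of HNRNPA1 levels over the heifers was wider at each age than the difference between the ages within any heifer. Each heifer had its own array, so differences between heifers and between arrays cannot be told apart. HNRNPA2B1 had 2 compared probes. One of them, EMBV3_17761, was higher at 8 months in 4 of 4 heifers (0.40, 0.08, 0.80 and 0.11, mean 0.35 ± 0.34). In heifer 3 at 14 months its scanner intensity was 179, beside a limit of 104.8 for being above background. That leaves the size of its ratio of 0.80 uncertain. The other, EMBV3_36013, had 0.58, -0.15, 0.31 and -0.46, with a mean of 0.07 ± 0.46, which went to -0.14 under median centring, level with the median of all probes there. The probes of HNRNPA2B1 therefore differed in heifers 2 and 4 in sign.

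**Figure D2:**
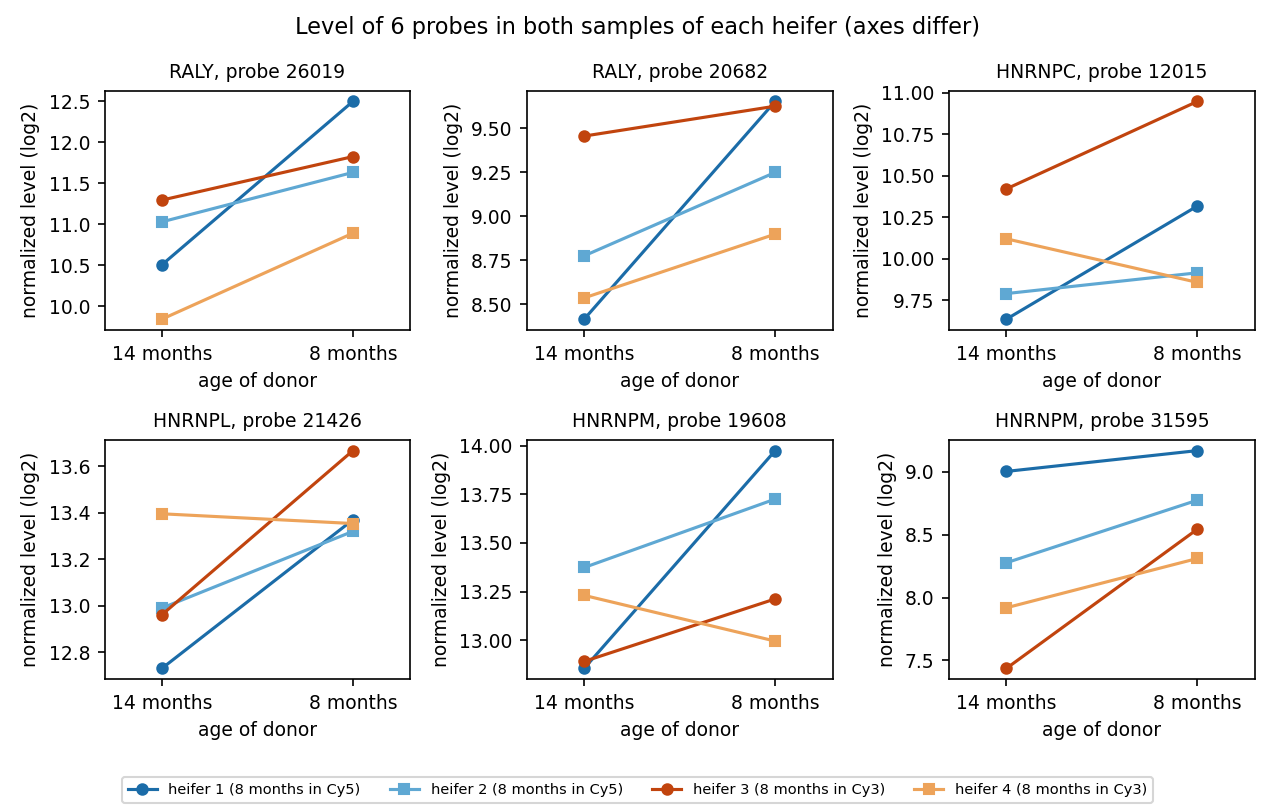
Normalized log2 level (y axis, which differs between panels) of 6 probes in the 14-month and the 8-month embryos (x axis) of each heifer, with 1 line per heifer. Both RALY probes are higher at 8 months in all heifers, while HNRNPC, HNRNPL and HNRNPM EMBV3_19608 are lower at 8 months in heifer 4.

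HNRNPM, a splicing regulator that binds GU-rich RNA, had 4 compared probes, each with a mean above 0. The brightest, EMBV3_19608, had levels of 13.97, 13.73, 13.21 and 13.00 at 8 months and 12.86, 13.37, 12.89 and 13.23 at 14 months. Its ratios were 1.12, 0.35, 0.32 and -0.23, with a mean of 0.39 ± 0.56 (SD, n = 4). That mean was 0.01 under median centring, 0.16 above the median of all probes there. The fitted ratio of this probe was 0.20 to 0.58 with 1 heifer left out. The other 3, EMBV3_10263, EMBV3_31595 and EMBV3_39715, had scanner intensities of 110 to 656 and were higher at 8 months in all 4 heifers, with means of 0.34 ± 0.35, 0.54 ± 0.40 and 0.42 ± 0.53. The bright probe was highest in heifer 1. The dimmer ones were highest in heifer 3, at 0.87 to 1.20, and had 0.04 to 0.17 in heifer 1. The probes of HNRNPM thus shared a sign of the mean and not the order of the heifers. At 14 months, 3 of 4 samples were above background with EMBV3_31595. In heifer 3 the 14-month scanner intensities of the 3 dimmer probes were 170, 110 and 120, beside a limit of 104.8 for being above background. That leaves the size of their ratios there uncertain.

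HNRNPL, a regulator of splicing that binds CA repeats, had 1 probe (EMBV3_21426). Its levels were 13.37, 13.32, 13.67 and 13.35 at 8 months and 12.73, 12.99, 12.96 and 13.40 at 14 months. The 8-month samples of HNRNPL lay closer together than the 14-month ones. The ratios were 0.64, 0.33, 0.71 and -0.04, with a mean of 0.41 ± 0.34 (SD, n = 4), which is 1.33-fold. The fitted ratio of HNRNPL was 0.33, 0.49, 0.22 and 0.60 without heifer 1, 2, 3 or 4, and 0.02 under median centring, 0.16 above the median of all probes there.

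HNRNPD, also known as AUF1, binds AU-rich elements that set mRNA stability. Its bright probe EMBV3_36843 was higher at 8 months in all 4 heifers (0.73, 0.05, 0.27 and 0.21, mean 0.31 ± 0.29), a mean that went to -0.04 under median centring, 0.11 above the median of all probes there. The dim probe EMBV3_22551 had -0.07, 0.02, 0.11 and 0.42, with a mean of 0.12 ± 0.21. Only 2 of its 4 samples at 14 months were above background, which leaves the size of its ratio uncertain. HNRNPK, which binds cytidine-rich sequences through KH domains, had ratios of 0.52, 0.41, 0.15 and -0.35 with EMBV3_04376. The mean of HNRNPK was 0.18 ± 0.39 and went to -0.20 under median centring, 0.06 below that median.

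HNRNPU, also called scaffold attachment factor A, binds nuclear RNA and chromatin, and its 2 probes went opposite ways. The brighter one, EMBV3_35232, had levels of 10.27, 10.66, 11.06 and 9.84 at 8 months and 10.75, 10.95, 10.97 and 10.37 at 14 months. It was lower at 8 months in 3 of 4 heifers (-0.48, -0.29, 0.09 and -0.53, mean -0.30 ± 0.29, SD, n = 4). The dimmer one, EMBV3_38276, with scanner intensities of 135 to 286 at 14 months, was higher in 4 of 4 (0.24, 0.24, 0.52 and 0.41, mean 0.35 ± 0.14). It had the smallest SD of the 17 probes. At 14 months this dimmer probe was close to the limit for being above background, at 135 beside 104.8 in heifer 3 and 240 beside 231.6 in heifer 4. That leaves the size of its ratio uncertain. The dimmer HNRNPU probe exceeded the brighter one by 0.42 to 0.95 in every heifer, so no direction can be given for the gene. HNRNPR, a close relative of SYNCRIP, was the one gene of the 10 with a ratio below 0 in all 4 heifers (EMBV3_16149, -0.06, -0.02, -0.61 and -0.23, mean -0.23 ± 0.27), and with the authors' deposited table heifer 2 had 0.04.

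Across the 17 probes, 14 had a mean ratio above 0 and 3 below, and the median was 0.34, beside 0.0023 over all 17685 compared probes. Under median centring 10 were above 0 and 7 below, and the median was 0.02 beside -0.14 over all probes, with 13 of the 17 above the latter. The 17 probes come from 10 genes, 4 of them from HNRNPM, and share arrays. With 1 probe per gene, 7 of 10 genes were above 0, with a median of 0.23 beside -0.0035 over all genes. Without RALY the median of the other 9 genes was 0.18. A ratio of the same sign in all 4 heifers was found in 9 of the 17 probes (28.5% of all probes) and in 3 of the 10 genes, RALY, HNRNPD and HNRNPR (27.6% of all genes). The 9 include both RALY probes and the 3 dimmer HNRNPM probes. Such agreement depends on the age ratio, which was used in the choice, so nothing is read from these counts.

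The heifers differed. Of the 17 probes, 14, 13, 15 and 9 were above 0 in heifers 1 to 4, with medians of 0.40, 0.19, 0.32 and 0.11. Over all compared probes 47.9% to 51% were above 0 in a heifer. With 1 probe per gene, 8, 6, 8 and 2 of the 10 genes were above 0, and in heifer 4 only RALY and HNRNPD were. Without heifer 1 or heifer 3 the median of the 17 probes was 0.18 and 0.19, and without heifer 2 or heifer 4 it was 0.39 and 0.41. The SD over the heifers had a median of 0.35 among the 17 probes and 0.25 among all probes.

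By the fit across all genes (limma, Benjamini-Hochberg adjusted p under 0.05), 1 of the 10 genes passed, RALY, by which the group was chosen, where 4.5% of all genes passed. Over all probes 0 of the 17 passed, where 1.88% of all did (0.554% as higher and 1.32% as lower at 8 months). At an unadjusted p under 0.05 the count was 11 of 17, beside 26.5% of all probes. Nothing is read from these shares, since they come from the contrast used in the choice, and the 17 include both RALY probes and 4 of HNRNPM on the same arrays. The fitted SE of RALY was 0.20 with variances moderated over all genes, 0.37 without that moderation, and 0.22 without the dye term.

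The dye term of the same fit was not used in choosing the genes. It asks whether a probe was brighter in Cy5 than in Cy3 whatever the age. Of the 17 probes, 0 passed (limma, adjusted p under 0.05), where 0.102% of all 17685 probes did, and 1 had an unadjusted p under 0.05, where 19% of all did. That probe was HNRNPK EMBV3_04376, with 0.28 ± 0.11 (SE of the fit, adjusted p = 0.245). The highest dye value was that of the bright HNRNPM probe (0.35 ± 0.16, adjusted p = 0.284). For RALY the dye term was 0.25 ± 0.22 (EMBV3_26019, adjusted p = 0.549) and 0.29 ± 0.14 (EMBV3_20682, adjusted p = 0.301). By orientation, RALY EMBV3_26019 averaged 1.298 in heifers 1 and 2 and 0.79 in heifers 3 and 4, and EMBV3_20682 averaged 0.85 and 0.27. The sign of the mean differed between the orientations for 4 of the 17 probes, and for 43.9% of all probes. The 4 were HNRNPA1 (0.08 and -0.28), HNRNPA2B1 EMBV3_36013 (0.21 and -0.07), HNRNPK EMBV3_04376 (0.47 and -0.10) and HNRNPD EMBV3_22551 (-0.02 and 0.26). Such a change of sign also depends on the size of the age ratio, which was used in the choice, so nothing is read from this count. The absolute dye term had a median of 0.17 among the 17 probes and 0.13 among all probes.

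**Figure D3:**
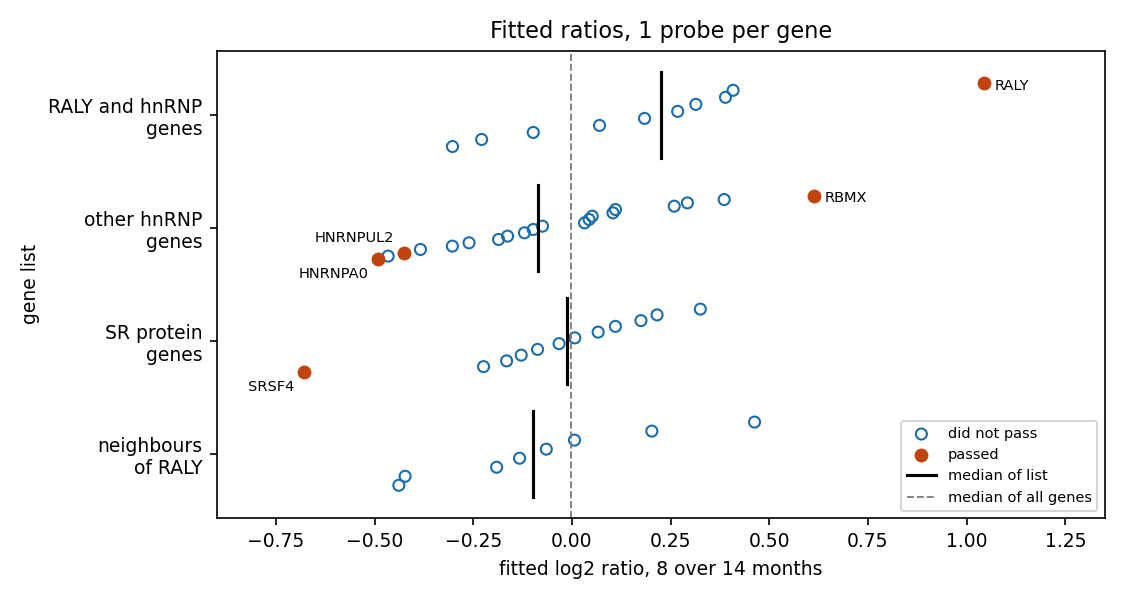
Fitted log2 ratio of 8 over 14 months (x axis) for each compared gene of 4 lists (y axis), with 1 probe per gene. Filled points passed over all genes, black bars are list medians and the dashed line is the median of all genes. RALY stands at 1.04, RBMX at 0.61 and SRSF4 at -0.68.

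The same fit was read for other hnRNP genes. Of 23 listed, 20 were compared and 3 passed: RBMX higher at 8 months (1.7% of all genes passed as higher) and HNRNPA0 and HNRNPUL2 lower (2.8% as lower). The median of the 20 was -0.09 beside -0.0035 over all genes, and 9 were above 0 and 11 below. RBMX, the X-linked hnRNP G, had ratios of 0.98, 0.40, 0.70 and 0.37 with EMBV3_38365 (fitted 0.61 ± 0.13, SE, limma adjusted p = 0.0387). HNRNPA0, an AU-rich element binding protein, had -0.48, -0.32, -0.63 and -0.54 with EMBV3_04080 (-0.49 ± 0.10, limma adjusted p = 0.0384). HNRNPUL2, a relative of HNRNPU, was lower at 8 months by a similar amount in each heifer, with -0.45, -0.42, -0.50 and -0.33 (EMBV3_07348, -0.42 ± 0.10, limma adjusted p = 0.0493).

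These calls rested on 1 probe each. A second probe of RBMX, EMBV3_40483, had a mean of 0.0051, and a second probe of HNRNPA0, EMBV3_34551, had -0.11. RBMX passed in 7 of 15 alternative settings (adjusted p 0.0264 to 0.336, 0.22 under median centring, which moved the median of all genes to -0.18), HNRNPA0 in 7 of 15 (0.00070 to 0.268) and HNRNPUL2 in 6 of 15 (0.0019 to 0.272). SYNCRIP, named here after its values were seen as the relative of HNRNPR, had probes of opposite sign: EMBV3_16594 had a mean of 0.57 and EMBV3_23966 a mean of -0.47, and neither passed.

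The SR proteins are splicing activators that often oppose hnRNP proteins at exons. Of 14 genes listed, 12 were compared and 1 passed, SRSF4, lower at 8 months (2.8% of all genes passed as lower). The median of the 12 was -0.01, with 6 above 0 and 6 below. SRSF4 (EMBV3_41074) had ratios of -0.90, -0.88, -0.49 and -0.45 (fitted -0.68 ± 0.10, limma adjusted p = 0.0313), and passed in 9 of 15 alternative settings (adjusted p 0.00072 to 0.226). TRA2A, a relative of the SR proteins, had 0.54, 0.42, 0.21 and 0.14 (EMBV3_31645, 0.33 ± 0.10, limma adjusted p = 0.0842), and -0.01 under median centring, above the median of all genes there.

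The genes next to RALY in the RefSeq gene order of assembly ARS-UCD2.0 were read in the same way. On one side lie CHMP4B, ZNF341, PXMP4, E2F1 and ACTL10, and on the other EIF2S2, ASIP, AHCY, ITCH and DYNLRB1. Of these 10 neighbours, 8 were compared and 0 passed (limma, 4.5% of all genes passed), 3 had an unadjusted p under 0.05 (27.3% of all genes did), and the median ratio was -0.10. EIF2S2, the beta subunit of the initiation factor eIF2 and the direct neighbour of RALY, had -0.13, -0.40, -0.08 and 0.09 (EMBV3_30597, fitted -0.13 ± 0.10, limma adjusted p = 0.429). EIF2S2 was thus lower at 8 months in 3 of 4 heifers, where RALY was higher in all. ZNF341, a zinc finger protein, had -0.44 ± 0.10 (EMBV3_37085, limma adjusted p = 0.0529) with 1 of 4 samples above background at 8 months, which leaves its size uncertain. CHMP4B, a subunit of the ESCRT-III complex on the other side, had 0.46 ± 0.13 with its brightest probe EMBV3_26292 (limma adjusted p = 0.0703), and its other 2 probes had means of -0.175 and 0.10. ASIP, which encodes the agouti signalling protein, had a probe that was too dim to be compared, and ACTL10 had none.

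Among all 8398 genes, those whose 4 heifer ratios lay nearest to RALY by Euclidean distance were PRKRIP1 (distance 0.57), PRPF6 (0.73), TSPAN17 (0.75), PACSIN3 (0.85) and ESRRA (0.88), where the median distance of all genes was 2.45. PRKRIP1 had ratios of 1.45, 0.67, 0.45 and 0.92. PRPF6 had 1.56, 1.03, 0.51 and 0.64. ESRRA, the orphan nuclear receptor ERR alpha, had 1.17, 0.68, 0.42 and 0.77. As for RALY, heifer 1 was highest and heifer 3 lowest in PRKRIP1, PRPF6, TSPAN17 and ESRRA, and heifer 4 was lowest in PACSIN3. This likeness is over 4 heifers and within the contrast from which RALY was chosen, so it is a description.

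**Figure D4:**
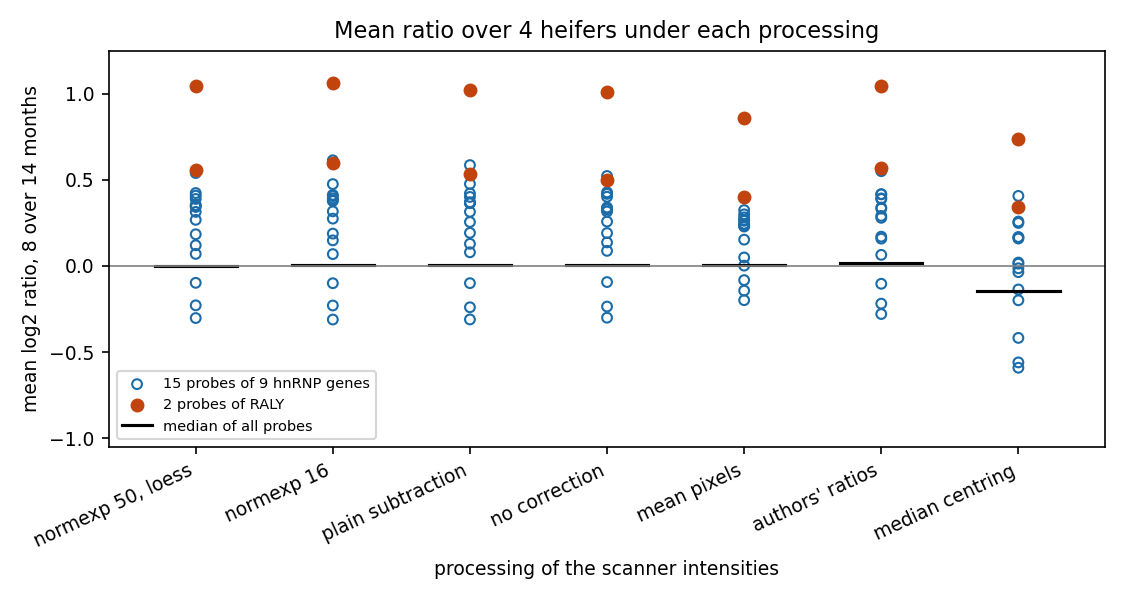
Mean log2 ratio of 8 over 14 months over 4 heifers (y axis) of the 17 probes under 7 ways of processing the arrays (x axis). Filled points are RALY, open points the other genes, and bars the median of all compared probes. The bright RALY probe stays between 0.74 and 1.06, and median centring moves the median of all probes to -0.14.

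With 7 ways of processing the intensities, the mean of RALY EMBV3_26019 ranged from 0.74 under median centring to 1.06 with a smaller normexp offset, and was 0.86 where a spot was read by its mean pixel. In the authors' deposited table it was 1.04, with 2.02, 0.68, 0.47 and 1.01 in heifers 1 to 4. Relative to the median of all genes, RALY stood at 0.92 under median centring and at 1.05 under loess. With 1 probe per gene, the lowest of the 10 under median centring were HNRNPA1 (-0.42), HNRNPR (-0.56) and HNRNPU (EMBV3_35232, -0.59). The dimmer HNRNPU probe, EMBV3_38276, had 0.25 in that setting, so no direction is given for this gene. The median of all genes was -0.18 under median centring. Calls over all genes (limma) went from 143 higher and 235 lower to 39 higher and 2039 lower.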

How the data were processed

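The deposited scanner tables give foreground and local background intensity per spot at both wavelengths, not normalized, per the file headers. The authors also deposited normalized log2 ratios per spot, by a method that the sources used here do not give. Their series table tracked the 8 over 14 month ratios computed here (r = 0.991 to 0.999 per array over compared probes brighter than their median, slope 0.987 to 0.996, column medians 0.00364, 0.000285, -0.00139 and 0.00937), and it served as an alternative.

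Median intensities were corrected with normexp (offset 50) and normalized by loess without weight on 1426 control or unnamed spots (limma 3.58.1, R 4.3.3). Above background means a foreground over the mean of the 153 negative controls plus 2 SD. A probe was compared if 3 or more of the 4 samples of an age exceeded this, and the brightest stood for its gene. Levels were Aquantile-scaled. Age was fitted with a dye term (lmFit, eBayes, 2 residual degrees of freedom), two-sided, adjusted by Benjamini-Hochberg over all genes or all probes at 0.05. The number of arrays limits the precision. Of 21790 probes with a gene symbol, 1524 had it replaced through RefSeq synonyms. The scripts were tested on simulated data.

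The genes and lists were chosen with earlier results of these data known. Text names all 10 genes and their probes, in each other list every gene that passed and the 2 smallest p-values, and the 5 genes nearest to RALY. Each heifer has 1 array, so no batch within a heifer could be tested.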

Additional observations from a re-analysis of the deposited data

Results flagged for a closer look

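Of 28 compared probes of the named genes examined for a heifer standing apart, 1 did. The HNRNPM probe EMBV3_10263 had a log2 ratio of 0.8731 in heifer 3, where the other 3 heifers lay between 0.1436 and 0.1851, a gap of 0.943 of the whole range, past the 95% critical value of Dixon. About 1 group in 20 is marked in this way by chance. The 2 other dim HNRNPM probes were also highest in heifer 3, at 1.11 and 1.20. This was not particular to HNRNPM. The dim probes HNRNPA2B1 EMBV3_17761 (0.80) and HNRNPU EMBV3_38276 (0.52) were highest in heifer 3 too, and HNRNPD EMBV3_22551 (0.42) was highest in heifer 4. The part of low signal at 14 months in heifer 3 was not tested.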

How the results depend on the processing

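The mean RALY ratio was 0.74 to 1.06 over the ways of processing the intensities and 0.73 to 1.21 without 1 heifer. No dye call of a probe of the 10 genes arose in 13 alternatives (limma, 0 to 6 at an unadjusted p under 0.05). These took in 17 probes, but 21 with no filter on dim probes and 15 where all samples had to be above background. Counts of age calls moved more, and the cause was not tested. Dropping the dye term, dropping the moderation of variances or reading spots by mean pixels each left 0 genes (limma, 1544, 1263 and 2257 at an unadjusted p under 0.05), so 0 of the 10 genes, 0 other hnRNP genes, 0 SR genes and 0 neighbours of RALY did. All probes gave 0 calls in these settings and with plain or no background subtraction (3153, 2785, 4582, 4560 and 4506 unadjusted), 585 with offset 16 and 1013 with no filter on dim probes. Median centring gave 2078 of 8398 genes (39 higher and 2039 lower at 8 months) and 3416 of 17685 probes. It gave 4 of the 10 genes (1 higher and 3 lower). The calls for 9 of 20 other hnRNP genes, 5 of 12 SR genes and 4 of 8 neighbours were all lower. Nothing is read from these counts, since the median of all genes moved to -0.18 in that setting. Averaging all probes of a gene gave 207 genes, 0 of the 10 genes and 0 other hnRNP genes. Neighbours of RALY had 1 call with offset 16, 1 with no filter and 2 with the authors' deposited ratios. Without 1 heifer the counts were 0 to 339 genes, 0 to 1180 probes, 0 to 1 of the 10 genes, 0 to 1 other hnRNP genes, 0 to 1 SR genes and 0 to 1 neighbours. RALY did not pass without any 1 heifer (adjusted p 0.0626 to 0.227), and the call without heifer 4 was HNRNPL. The fit was paired by heifer, because both ages of a heifer share an array and the ratio is already the pair. Signal near background limits EMBV3_22551 of HNRNPD, EMBV3_17761 of HNRNPA2B1, EMBV3_10263, EMBV3_31595 and EMBV3_39715 of HNRNPM, and EMBV3_38276 of HNRNPU. EMBV3_39715 and EMBV3_38276 had scanner intensities of 120 and 135 in heifer 3 at 14 months, beside a limit of 104.8 for being above background.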
